A study of Mus musculus with 6 samples.

Results

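The nuclear genes that encode subunits of respiratory complexes III, IV and V were examined in mouse 2-cell embryos with and without removal of their lipid droplets. Members were the nuclear protein-coding genes whose symbol begins with Uqcr, with Cox and a digit from 4 to 8, or with Atp5, together with Cyc1, and pseudogenes were left out. This rule found 45 of the 48967 genes with a row in the data, of which 9 belong to complex III, 18 to complex IV and 18 to complex V. Usmg5 was included because RefSeq names it Atp5md, and Atp5s, which RefSeq names Dmac2l, was included under its symbol in the annotation.

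Total RNA of pools of 3 embryos was sequenced, with 3 such libraries of controls and 3 of delipidated embryos. All embryos were wild-type F1 (C57Bl/10 X CBA/H) and were cultured in vitro in KSOM medium free of fatty acids from 0.5 to 2.0 days post coitum (dpc). The delipidated zygotes were treated with cytochalasin B, a drug that blocks actin assembly, centrifuged, placed in hyperosmotic sucrose medium and centrifuged again, after which the zona pellucida was opened with a laser and the droplets were aspirated. The controls were zygotes cultured in vitro, and the same handling is not described for them, so removal of lipid and the manipulation cannot be told apart. Zygotes of several hormonally stimulated females were mixed and allocated at random, so the libraries of a group are not separate litters and p-values measure the spread between pools of embryos. Gene counts added up to between 12164963 and 16165958 per control library and between 14683741 and 20059460 per delipidated library. Between 20582 and 22855 genes had counts in a control library and between 17091 and 20158 in a delipidated library, without overlap, and the part of this difference in the results below was not tested. Fewer copies of an RNA per embryo and fewer embryos contributing RNA cannot be told apart in such pools.

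Complexes III, IV and V form the second part of the mitochondrial respiratory chain. Complex III passes electrons from ubiquinol to cytochrome c, complex IV passes them from cytochrome c to oxygen, and complex V, the ATP synthase, uses the proton gradient that the chain builds up to make ATP. Some subunits of each complex are encoded by mitochondrial DNA, whereas the genes described here are nuclear. Several subunits of complex IV have alternative isoforms that are used in different tissues, while the ring subunit of complex V is encoded by several genes. Cleavage-stage embryos rely on oxidation of pyruvate in mitochondria inherited from the oocyte.

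Counts of 41 members were high enough for the test, and none of these was called as changed. With edgeR's quasi-likelihood test and adjustment over all 16020 genes tested, 0 members were called higher and 0 lower in delipidated embryos, as for all genes (0% in either direction; called means an adjusted p under 0.05 and a log2 fold change beyond 1). DESeq2 and limma-voom called 0 members as well, and over all genes limma-voom called 0. DESeq2 called 3 higher and 9 lower over the same 16020 genes, and 9 higher and 40 lower without the filter on low counts (30967 genes). The members with an unadjusted p under 0.05 by both of these tools were Uqcr10, which was higher, and Atp5j, which was lower. At an unadjusted p under 0.05, 0 members were higher, against 1.15% of all genes, and 1 member was lower, against 1.74%. These counts moved with single libraries. They were 1 higher (Uqcr10) and 1 lower (Atp5j) without control replicate 2. Without delipidated replicate 1 they were 1 and 2 of 42, where Cox6a2 entered the test as the higher member and Cox4i2 joined Atp5j as lower. Cox6a2 passed the filter there only through the delipidated libraries where it was high, so its p is no support for a change. Without delipidated replicate 3 the counts of members were 2 (Atp5k and Uqcrfs1) and 1 (Atp5j). The count over all genes, in both directions, moved with them, from 463 of 16020 to 590 of 17217, 713 of 17413 and 993 of 17689. Without delipidated replicate 2, Cox7a1 took the place of Atp5j as the 1 lower member. The libraries of the groups did not overlap for 2 members that were higher, Uqcr10 and Uqcrq, against 3.81% of all genes, and for 1 that was lower, Atp5j, against 5.05%. Most counts of Atp5j lie on parts that overlap another gene, as described below. These shares of the members were near the background. Fold changes above 0 were found for 15 members and below 0 for 26, and their median on the log2 scale was -0.20, beside -0.00073 for all genes tested. The split was 20 above and 22 below 0 without control replicate 3, and 12 and 30 without control replicate 1.

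Genes of all 3 complexes had counts in every library. Averaged over the libraries, most tested members lay above the median level of all tested genes. Levels are given as CPM, counts scaled to a common library size with TMM factors, and are compared between genes per kb of summed exonic parts. The median level of the tested members was 10.5 CPM per kb, beside 3.47 for all tested genes, and 32 of the 41 lay above the latter. The median was highest for complex IV, at 19.7 CPM per kb, followed by complex V at 10.9 and complex III at 7.70. By summed counts the order was another one, because complex V holds the most abundant genes. Together the complex V genes had 1047 ± 82.6 CPM in the control and 955 ± 90.1 CPM in the delipidated libraries (SD, n = 3 each). Most of this difference was Atp5j, and the other complex V genes together had 788 ± 83.5 CPM in controls against 773 ± 102 CPM after delipidation (SD, n = 3 each). The complex IV genes had 428 ± 59.8 and 375 ± 51.9 CPM, and the complex III genes 111 ± 31.9 and 134 ± 40.1 CPM (SD, n = 3 each). For each complex the groups overlapped, and the difference between the means was close to or smaller than the SD between libraries.

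**Figure D1:**
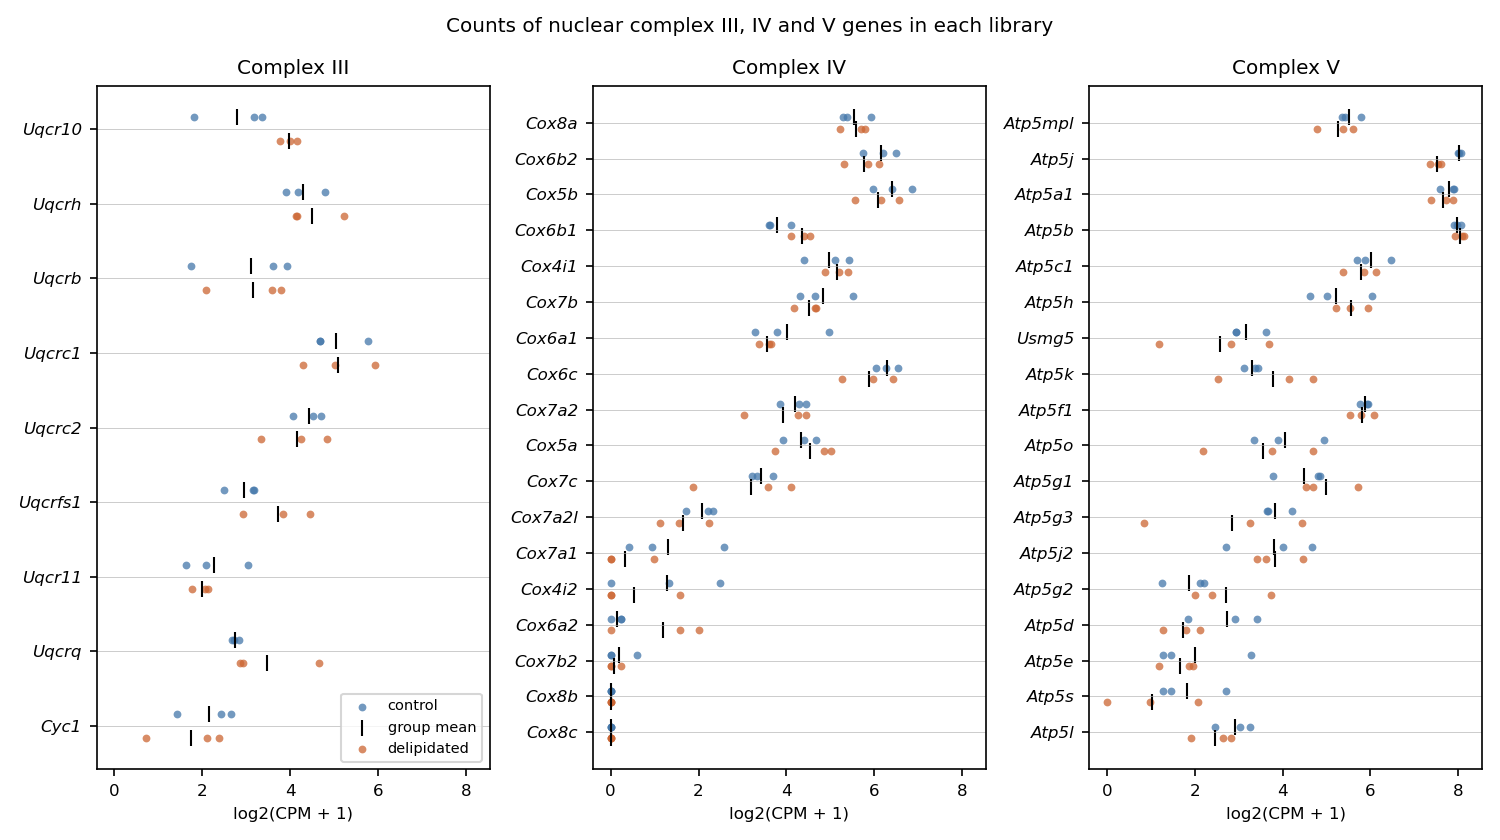
Level of each member in each library as log2(CPM + 1), with 1 panel per complex, members ordered by CPM per kb, blue points for the 3 control and orange points for the 3 delipidated libraries, and black bars for the group means on this scale. The points of the groups are apart for Uqcr10, Uqcrq and Atp5j, and Cox8b and Cox8c are at 0 in all 6 libraries.

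Complex III had 9 tested members, 5 with a positive and 4 with a negative fold change, and the median on the log2 scale was 0.10. This sign was not stable, as the median was -0.08 without control replicate 1 and -0.20 without delipidated replicate 2. Its size moved upward as well, to 0.42 without delipidated replicate 3 and to 0.48 with the exonic part of each gene that held most counts. The order of levels depends on how the length of a gene is taken, and by summed part length the 3 highest members were Uqcr10, Uqcrh and Uqcrb, which encode small subunits without redox groups.

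Uqcr10, listed as ENSMUSG00000059534 on the reverse strand of chromosome 11 from 4701973 to 4704342 (build GRCm38), had 8.02, 9.25 and 2.51 CPM in controls against 16.8, 15.1 and 12.6 CPM after delipidation. Each delipidated library exceeded each control library, with control replicate 3 the lowest. The group means were 6.59 ± 3.59 and 14.8 ± 2.15 CPM (SD, n = 3 each) and its level was 18.3 CPM per kb. This was the highest of complex III by summed part length, but Uqcr10 came after Uqcrh when each part was lengthened by about 1 read (extended part lengths) and after Uqcrh and Uqcrc1 by the part with most counts. The log2 fold change was 1.17 (standard error, SE, 0.57), and 0.78 without control replicate 3. The unadjusted p was 0.0645, and after edgeR's adjustment over all genes p was 1.00. The p lay under 0.05 with DESeq2 (0.0345 without the filter and 0.0485 with it), with limma-voom (0.0346) and without control replicate 2 (0.0491), and over 0.05 without each of the other libraries. Over all settings its adjusted p ranged from 0.662 (DESeq2) to 1.00.

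Uqcrq, another small subunit, which lies next to ubiquinone, had 6.16, 5.38 and 5.62 CPM in controls against 6.57, 24.2 and 6.28 CPM after delipidation. The groups did not overlap, but delipidated replicate 1 and 3 exceeded the highest control library only slightly, and the difference rested on replicate 2. The log2 fold change was 1.11 (SE 0.64), with an unadjusted p of 0.108, and 0.17 without delipidated replicate 2.

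Uqcrh, the hinge protein that helps cytochrome c to dock, had 14.01, 17.2 and 26.8 CPM in controls against 16.5, 36.6 and 16.9 CPM after delipidation. Uqcrb, which binds near the ubiquinone site, had 2.36, 14.3 and 11.2 CPM in controls against 12.9, 11.0 and 3.25 CPM after delipidation. Both genes overlapped between the groups, and each group of Uqcrb held 1 library several times lower than the others. Uqcrfs1, which encodes the Rieske iron-sulfur protein, ranged from 4.64 to 8.06 CPM in controls and 6.57 to 20.8 CPM after delipidation, with a log2 fold change of 0.98 (SE 0.57). Cyc1, the cytochrome subunit that hands electrons on to cytochrome c, had the lowest level of the complex, at 2.72 CPM per kb, and ranged from 1.67 to 5.26 CPM in controls and 0.642 to 4.18 CPM after delipidation. The core proteins Uqcrc1 and Uqcrc2 and the small subunit Uqcr11 had log2 fold changes of 0.10, -0.20 and -0.50, each smaller than its SE.

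Complex IV had 18 members, of which 14 were tested, 5 with a positive and 9 with a negative fold change, and the median on the log2 scale was -0.33. The median was weaker without control replicate 2 (-0.09) and without control replicate 3 (-0.05). The members without an alternative isoform, Cox5a, Cox5b, Cox6c and Cox7c, showed no separation of the groups. Cox5b, which binds zinc, was among the 3 members with the highest level per kb and had 62.2, 115 and 84.1 CPM in controls against 69.9, 46.4 and 93.8 CPM after delipidation. Its log2 fold change was -0.31 (SE 0.33). Cox5a, Cox6c and Cox7c, which lie around the catalytic core, had log2 fold changes of 0.28, -0.34 and 0.03 with standard errors of 0.44, 0.32 and 0.64. The sign of Cox7c changed with the setting.

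The isoforms of complex IV were compared within their sets, as the share of an isoform in the counts per kb of its set in each library. In 6 sets of complex IV, the form of most somatic tissues held most of the counts in 5, and in the Cox6b set the form known from testis did. Of the 17 genes in the 7 sets, with the Atp5g genes of complex V included, Cox8b and Cox8c had no counts.

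Cox6b1 and Cox6b2 encode alternative forms of the subunit that links the monomers of the complex IV dimer on the side of the intermembrane space, Cox6b1 in most tissues and Cox6b2 mainly in testis. Cox6b2 (ENSMUSG00000051811, reverse strand of chromosome 7 from 4751792 to 4753094) had 72.9, 52.2 and 89.0 CPM in controls against 68.0, 38.9 and 56.8 CPM after delipidation. Cox6b1 (ENSMUSG00000036751, reverse strand of chromosome 7 from 30616861 to 30626151) had 11.1, 11.4 and 16.3 CPM in controls against 22.3, 16.2 and 20.2 CPM after delipidation. Cox6b2 was the higher of the pair in all 6 libraries, and for each gene alone the groups overlapped by summed parts. By the part with most counts Cox6b1 had 11.9, 12.3 and 10.2 CPM in controls against 17.0, 21.2 and 20.5 CPM after delipidation. The groups did not overlap for Cox6b1 by this measure, whereas those of Cox6b2 did. The log2 fold change was -0.39 (SE 0.31) for Cox6b2 and 0.60 (SE 0.42) for Cox6b1, with unadjusted p-values of 0.242 and 0.178.

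The share of Cox6b1 in the pair was 19.3%, 25.4% and 22.2% in controls against 33.9%, 39.4% and 35.8% after delipidation. Each delipidated library exceeded each control library. The means were 22.3% ± 3.05 and 36.3% ± 2.78 (SD, n = 3 each, and p by exact permutation was 0.1, the smallest possible with 3 and 3 libraries, so this test cannot fall under 0.05). This was the 1 set of 7 in which a share did not overlap between the groups, and p was not adjusted for the number of sets. The log2 ratio of Cox6b1 to Cox6b2 per kb was -1.81 ± 0.26 in the control and -0.81 ± 0.17 in the delipidated libraries (SD, n = 3 each). The size of the share depends on how counts are made, because Cox6b2 is split into 22 exonic parts and Cox6b1 into 9, and a read that spans parts is counted in each. With the part of each gene that held most counts, the share of Cox6b1 was 22.5%, 28.9% and 15.9% in controls against 35.6%, 47.7% and 36.1% after delipidation. With each part length extended by the length of a read, a measure chosen after the data were seen, it was 28.2% ± 3.57 and 43.8% ± 2.95 (SD, n = 3 each). The groups did not overlap by either measure, and Cox6b2 held the larger share in every library by all 3 measures.

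The promoters of the pair are shown because their genes made up the set whose share did not overlap between the groups. They are RefSeq sequences of build GRCm38.p6, from 250 bases before to 50 bases after the annotated start, and capitals mark a match to GABPA's motif CCGGAAG on either strand. Cox6b1 lies at chr7:30626065-30626364 and Cox6b2 at chr7:4753045-4753344, both on the reverse strand.
Cox6b1: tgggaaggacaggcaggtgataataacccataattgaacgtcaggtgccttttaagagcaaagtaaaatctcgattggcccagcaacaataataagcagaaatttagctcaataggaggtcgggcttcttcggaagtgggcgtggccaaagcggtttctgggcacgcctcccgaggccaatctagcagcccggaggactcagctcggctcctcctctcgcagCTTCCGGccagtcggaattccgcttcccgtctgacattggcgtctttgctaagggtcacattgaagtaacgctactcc
Cox6b2: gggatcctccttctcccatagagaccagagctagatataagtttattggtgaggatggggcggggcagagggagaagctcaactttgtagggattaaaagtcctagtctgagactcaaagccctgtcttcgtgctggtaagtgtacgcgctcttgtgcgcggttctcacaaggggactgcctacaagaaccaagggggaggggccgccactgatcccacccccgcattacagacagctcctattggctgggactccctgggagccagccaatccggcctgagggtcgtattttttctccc
The window of Cox6b1 held 17 CpG dinucleotides and that of Cox6b2 held 10. The first exonic part of Cox6b2, chr7:4753039-4753094, which includes all transcribed bases of its window, had 0 counts in all 6 libraries (a limit of 3 counts in each), so the annotated start shown was not seen in use. The parts of Cox6b1 at its start had counts in every library. Of these, chr7:30626115-30626151 lies before the annotated start shown. It had 18, 31 and 11 counts in controls against 65, 15 and 28 counts after delipidation. The marked match in the window of Cox6b1 lies within this counted exonic part.

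Cox4i1 and Cox4i2 encode the general form and the form of lung and of low oxygen of a subunit through which ATP can inhibit the complex. Cox4i1 had 20.0, 33.2 and 42.1 CPM in controls against 41.6, 35.6 and 28.4 CPM after delipidation, and its fold change was smaller than its standard error (0.15 and 0.37 on the log2 scale). Cox4i2 had 0, 76 and 20 counts in controls against 40, 0 and 0 counts after delipidation, on at most 3 of its 7 parts. Its log2 fold change was -1.61 (SE 2.02), and -0.20 without control replicate 2. The fit gave -7.89 without delipidated replicate 1, but the delipidated libraries left then had 0 counts, so its size cannot be read. The 3 libraries with 0 counts allow up to 3 counts each, and its share of the set was 21.4% at most, in control replicate 2, or 34.7% by the part with most counts.

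Cox6a1 is the general form and Cox6a2 the form of heart and skeletal muscle of a regulatory subunit. Cox6a1 had 12.9, 30.1 and 8.74 CPM in controls against 9.43, 11.6 and 11.2 CPM after delipidation, with control replicate 2 far above the rest. Its log2 fold change was -0.68 (SE 0.53), and -0.01 without that library. Cox6a2 had 2, 3 and 0 counts in controls against 0, 49 and 28 counts after delipidation. With all 6 libraries it did not pass the filter on low counts. Without the filter its unadjusted p was 0.0969 with edgeR and 0.0502 with DESeq2. Without delipidated replicate 1, a library with 0 counts, Cox6a2 passed the filter and its unadjusted p with edgeR was 0.0298. It also passed without control replicate 1, 2 or 3, with unadjusted p-values of 0.161, 0.150 and 0.200. In each of these fits it passed only through delipidated replicate 2 and 3, where it was high. Leaving out delipidated replicate 1 also removed the delipidated library without counts. These p-values are therefore no support for a change. Of the counts of Cox6a2, 48.8% lay on parts shared with a gene of the other strand. Its share of the pair was 0.65% ± 0.67 in the control and 12.2% ± 10.9 in the delipidated libraries (SD, n = 3 each), with overlap at 0.

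Cox7a2 is the general form, Cox7a1 the muscle form and Cox7a2l a related protein that joins complexes III and IV in supercomplexes. Cox7a2 had 18.5, 13.4 and 20.8 CPM in controls against 7.16, 18.2 and 20.9 CPM after delipidation and held the largest share of the set in every library. Cox7a1 had 4, 82 and 12 counts in controls against 0, 16 and 0 counts after delipidation, so that most of its counts came from control replicate 2. Cox7a2l had 2.28, 3.63 and 4.03 CPM in controls against 1.93, 1.17 and 3.74 CPM after delipidation. The 3 genes overlapped between the groups. The log2 fold change of Cox7a1, -2.64 (SE 1.91), rested on few counts and was -0.91 without control replicate 2. The fit gave -7.99 without delipidated replicate 2, but the delipidated libraries left then had 0 counts, so its size cannot be read.

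Cox7b had 18.9, 24.2 and 44.6 CPM in controls against 17.1, 24.7 and 24.1 CPM after delipidation, whereas its testis form Cox7b2 had 6, 0 and 0 counts and 0, 3 and 0 counts. Cox8a, the general form of the smallest subunit, had the highest level of complex IV by summed and by extended part length and came after Cox5b and Cox6c by the part with most counts. It had 40.9, 38.4 and 60.05 CPM in controls against 54.4, 36.4 and 51.3 CPM after delipidation. Its log2 fold change was 0.03 (SE 0.32). The muscle form Cox8b and the testis form Cox8c had 0 counts in all 6 libraries, which allows up to 3 counts in each library, or 0.148 to 0.253 CPM. This limit covers counting error only.

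**Figure D2:**
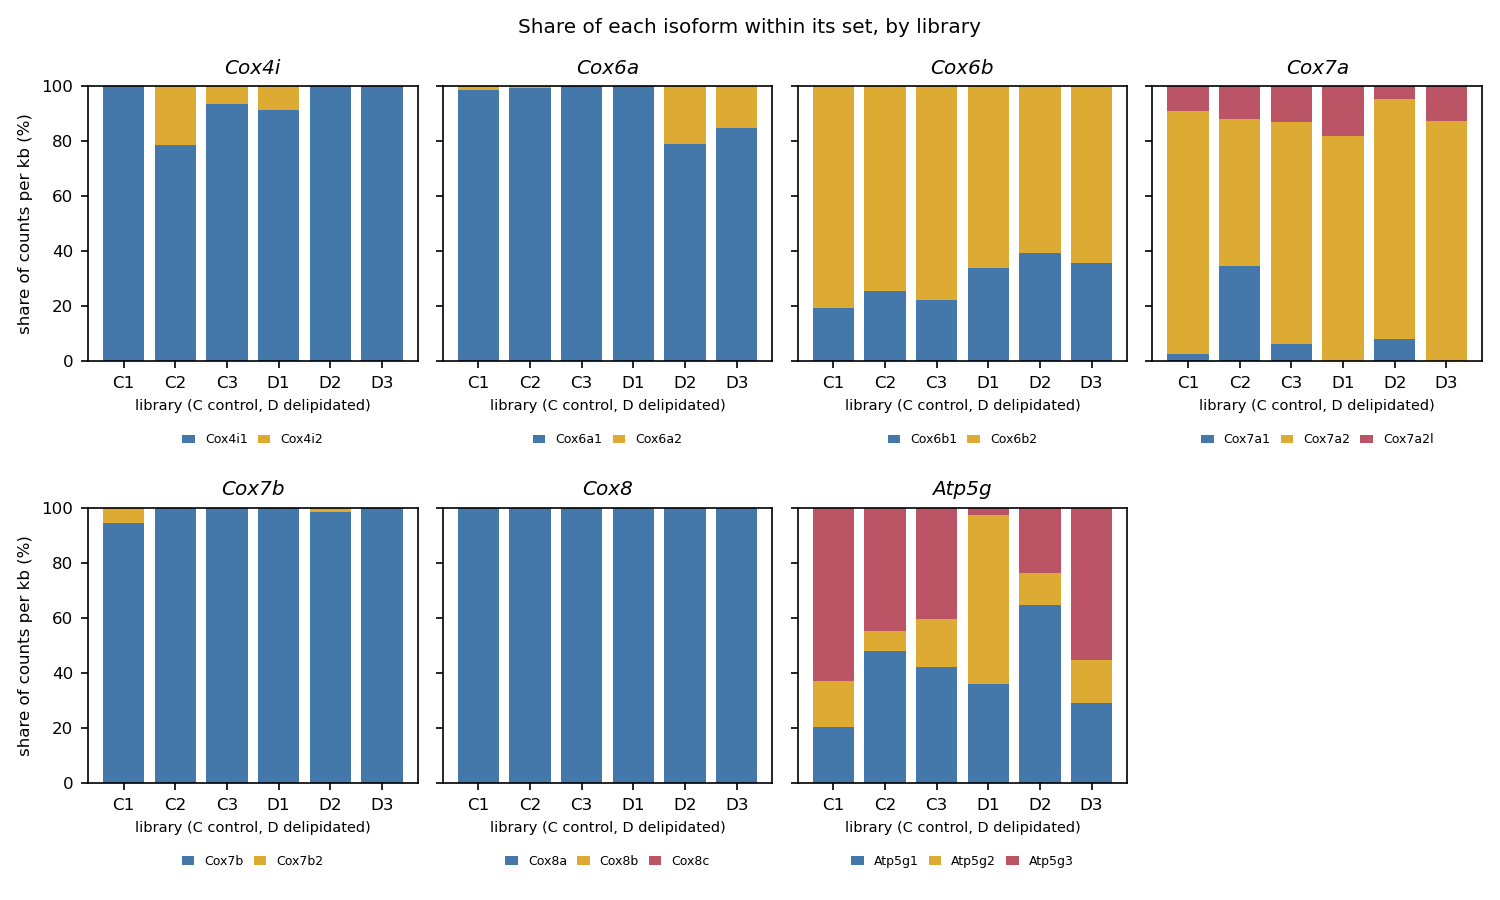
Share of each isoform, in percent of the counts per kb of exonic parts of its set, in the 3 control (C1 to C3) and 3 delipidated (D1 to D3) libraries, with 1 stacked bar per library. The share of Cox6b1 is 19.3% to 25.4% in the control and 33.9% to 39.4% in the delipidated libraries, and in each other set the groups overlap.

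Markers of the tissues of these isoforms were low apart from Odf2. Of 6 markers of muscle and heart, 6 had counts, and together they had 8.77, 11.8 and 9.58 CPM in controls against 14.8, 22.8 and 14.4 CPM after delipidation. Most of these counts came from the myosin genes Myh7, the most abundant over the 6 libraries, and Myh6, while Actc1, Acta1 and Ckm had 0 counts in every delipidated library. Of 6 markers of sperm and testis, 5 had counts, and Tnp2 had 0. Their sum was 1037, 769 and 1073 CPM in controls against 1009.7, 995 and 1162 CPM after delipidation and came almost entirely from Odf2, which also encodes a centrosomal protein. The 14 markers of oocytes and 2-cell embryos all had counts, with sums from 1072 to 1647 CPM in controls and 1231 to 1854 CPM after delipidation, and Oosp1 was the most abundant. Markers of other cells reached 32.6 CPM at most for cumulus and granulosa cells, with Amhr2 highest and Ptx3 and Foxl2 at 0, and 4.41 CPM for leukocytes, with Cd52 highest. Those of stromal cells had 5.48, 9.98 and 5.93 CPM in controls against 1.93, 3.50 and 4.09 CPM after delipidation, with Pdgfra highest. Those of oviduct epithelium had up to 228.8 CPM, mostly Epcam, while Ovgp1, Krt8, Pax8 and Foxj1 reached 9.33, 3.54, 1.41 and 0.553 CPM at most. The sums for muscle and for stromal cells did not overlap between the groups, and their part in the results was not tested.

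Complex V had 18 tested members, 5 with a positive and 13 with a negative fold change, and the median on the log2 scale was -0.24. The median was -0.08 without control replicate 2 and -0.05 without delipidated replicate 3. The catalytic head is built from the products of Atp5a1, Atp5b, Atp5c1, Atp5d and Atp5e. Atp5a1, the alpha subunit, had 189.8, 235 and 237 CPM in controls against 236, 209 and 165 CPM after delipidation. Atp5b, the catalytic beta subunit, ranged from 239 to 266 CPM in controls and 241 to 279 CPM after delipidation. Both overlapped between the groups, with log2 fold changes of -0.12 and 0.07 and standard errors of 0.21 and 0.18, the latter the smallest of all members. The parts of the central stalk differed more in level than these, with 31.6 CPM per kb for Atp5c1, 2.26 for Atp5d and 1.77 for Atp5e. Atp5d ranged from 2.62 to 9.73 CPM in controls and 1.43 to 3.38 CPM after delipidation, with a log2 fold change of -1.37 (SE 0.79), which was 0.11 by the part with most counts.

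Atp5g1, Atp5g2 and Atp5g3 encode the same mature subunit of the membrane ring with different import sequences. Atp5g1 had 12.7, 27.9 and 26.9 CPM in controls against 22.2, 51.9 and 24.7 CPM after delipidation. Atp5g2 had 3.37, 1.39 and 3.65 CPM in controls against 12.3, 3.01 and 4.24 CPM after delipidation, all of it on parts shared in name with an overlapping gene. Atp5g3 had 17.5, 11.7 and 11.5 CPM in controls against 0.790, 8.54 and 20.8 CPM after delipidation. The delipidated libraries thus differed most among themselves. Atp5g2 held 61.1% of the set in delipidated replicate 1, Atp5g1 64.6% in replicate 2 and Atp5g3 55.4% in replicate 3, whereas in the control libraries Atp5g2 held 7.30% to 17.5%. By the part with most counts Atp5g2 held 23.4% ± 10.9 in the control and 24.1% ± 22.8 in the delipidated libraries (SD, n = 3 each), so the contrast of its group means depends on the measure. The gene with the largest share in each delipidated library was the same by this measure, at 50.3%, 75.0% and 45.8%, and with extended part lengths. The groups overlapped for each gene.

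Among the subunits of the peripheral stalk, the groups separated for Atp5j by its summed parts. Atp5j (ENSMUSG00000022890, reverse strand of chromosome 16 from 84827866 to 84835625) had 258, 265 and 253 CPM in controls against 186, 163 and 195 CPM after delipidation. Each control library exceeded each delipidated library, and the values within a group were close, with means of 259 ± 5.96 and 181 ± 16.5 CPM (SD, n = 3 each). The log2 fold change was -0.51 (SE 0.19), and the unadjusted p of 0.0194 was the smallest of the members. After edgeR's adjustment over all genes p was 1.00, and the lowest over the alternatives was 0.586 (DESeq2).

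Most counts of Atp5j, 89.7%, lay on 8 of its 27 parts that overlap Gabpa on the opposite strand, between 84834892 and 84835602. The counts did not separate the strands. In 14 places where a part of either strand has the same ends, the smaller count divided by the larger had a median of 1.00. On the remaining 19 parts Atp5j had 240, 513 and 498 counts in controls against 190, 432 and 179 counts after delipidation, and the groups overlapped. The log2 fold change was then -0.88 (SE 0.47), with an unadjusted p of 0.0891. Gabpa, which encodes the DNA-binding subunit of an activator of respiratory chain genes, had 481, 554 and 469 CPM in controls against 449, 340.1 and 350.0 CPM after delipidation. Its groups did not overlap either, with a log2 fold change of -0.40 (SE 0.18) and an unadjusted p of 0.0504, and 13.5% of its counts lay on parts that overlap Atp5j. On its other 18 parts the log2 fold change was -0.40, with an unadjusted p of 0.0615. The shared part with most counts held 836, 1086 and 793 counts in controls against 984, 625 and 712 counts after delipidation, near the 937, 1301 and 1041 and the 1265, 860 and 849 counts of the highest part of Gabpa alone. No part of Atp5j alone exceeded 103 counts in any library. The summed value of Atp5j is therefore an upper limit of its level, and its fold change describes mostly the shared stretch. Without delipidated replicate 2, the library with the lowest value, the unadjusted p of Atp5j was 0.0842.

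The other subunits of the stalk, Atp5f1, Atp5h and Atp5o, had log2 fold changes of -0.06, 0.25 and -0.37, each smaller than its SE, and all counts of Atp5o lay on parts named jointly with an overlapping gene. Of the subunits in the membrane, Atp5mpl, a small proteolipid, had 114 CPM per kb, the highest of all members by summed part length. With extended part lengths Cox8a was higher (55.7 against 43.3), and by the part with most counts Atp5mpl came in place 5 of complex V. It had 39.7, 54.1 and 41.5 CPM in controls against 40.7, 47.3 and 26.7 CPM after delipidation, which overlapped. Atp5k, which with Atp5l supports the dimer of the synthase, ranged from 7.68 to 9.87 CPM in controls and 4.80 to 24.7 CPM after delipidation. Atp5l had 0.891 CPM per kb, the lowest of complex V by summed and by extended part length but not by the part with most counts, and 25.0% of its counts lay on parts that overlap the opposite strand. Atp5j2, Usmg5 and Atp5s had log2 fold changes of -0.10, -0.35 and -1.06 with standard errors of 0.57, 0.75 and 1.41. Atp5s, a factor needed for energy coupling, had 0 counts in delipidated replicate 3.

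**Figure D3:**
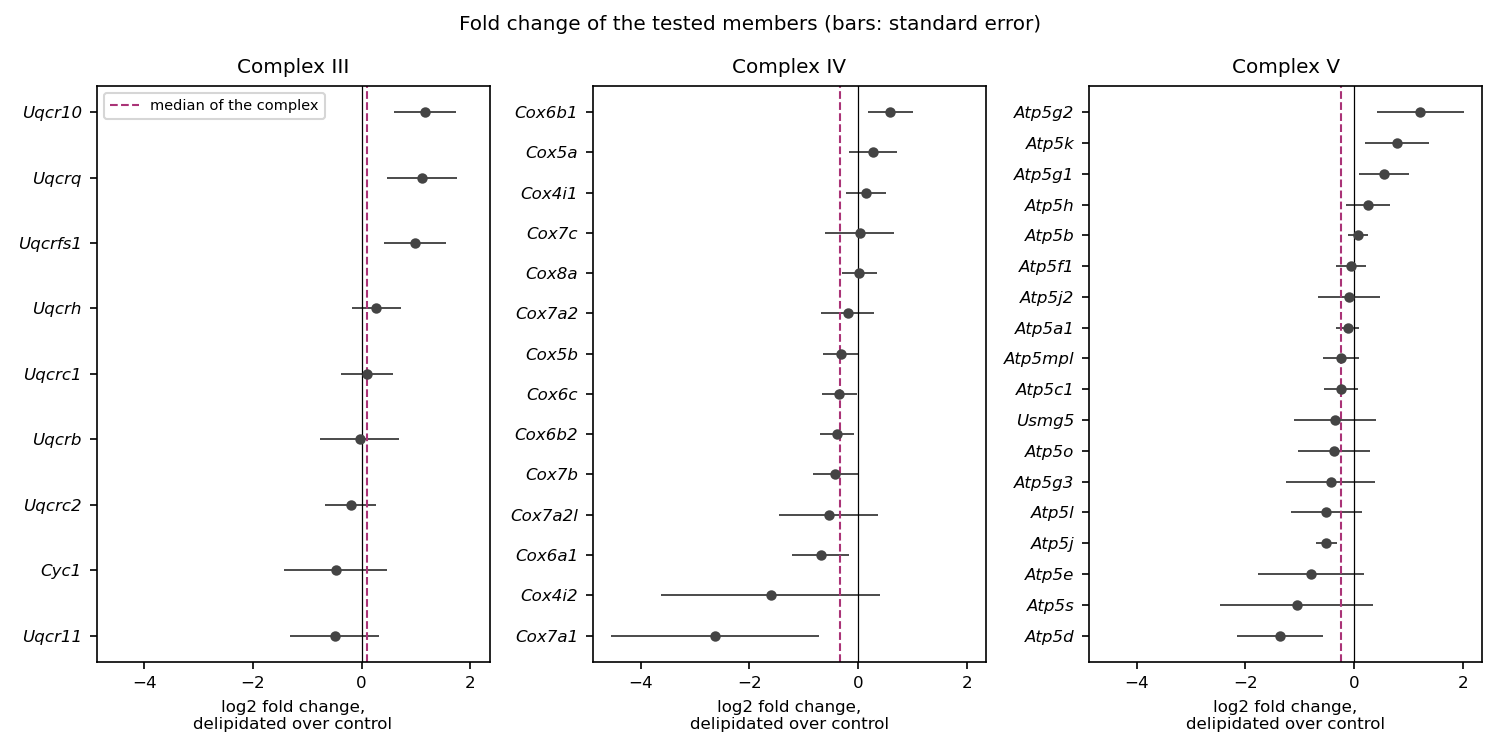
Log2 fold change of the 41 tested members, delipidated over control, from edgeR's quasi-likelihood fit, with 1 panel per complex, points for estimates, bars for 1 standard error, a solid line at 0 and a dashed line at the median of the complex (0.10, -0.33 and -0.24). Estimates lie on both sides of 0 in each complex, and the bars are longest for the rare isoforms Cox4i2 and Cox7a1.

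Other genes of the pathway were described by the same fit. None of the lists had a gene called (0 higher and 0 lower). The 7 assembly factors of complex III had a median of -0.40 on the log2 scale, and 1 was higher at an unadjusted p under 0.05, against 1.15% of all genes. This was Uqcc1, which is needed to make cytochrome b, with 8.44, 26.7 and 28.1 CPM in controls against 82.4, 33.1 and 28.4 CPM after delipidation. Its unadjusted p was 0.0457. Its groups did not overlap, but delipidated replicate 3 and control replicate 3 were almost equal. Uqcc2 was the other gene of this list without overlap, also higher, so that 2 of 7 were, against 3.81% of all genes. Bcs1l, which inserts the Rieske protein, had the next smallest p, with a log2 fold change of -1.63 (SE 0.91). For complex IV, 21 of 23 genes for assembly factors and the subunit Ndufa4 were tested, their median was -0.05, and 0 had an unadjusted p under 0.05. The smallest p-values belonged to Cox18, an insertase, and to Ndufa4, with log2 fold changes of -1.06 and -0.99 and standard errors of 0.56 and 0.52. Ndufa4 had 17.0, 19.7 and 17.9 CPM in controls against 3.90, 13.6 and 10.1 CPM after delipidation. It was 1 of 3 genes of the 21 that were lower without overlap, with Coa6 and Cox20, against 5.05% of all genes.

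The assembly factors of complex V gave 4 tested genes of 5, with a median log2 fold change of -0.05. Tmem70 and Fmc1 had the smallest p-values, 0.478 and 0.655. Of the cytochrome c genes, the somatic form Cycs had 31.9 ± 8.43 and 32.6 ± 15.03 CPM and the testis form Cyct 0.281 ± 0.487 and 1.30 ± 0.503 CPM (SD, n = 3 each). Complex II, which is wholly nuclear, had 8 tested genes whose median was 0.47 on the log2 scale, and 0 had an unadjusted p under 0.05. Its smallest p-values belonged to the assembly factors Sdhaf2 and Sdhaf1, with log2 fold changes of 0.96 and -1.85 and standard errors of 0.74 and 1.48. Of the 8 genes, 1 was higher without overlap (Sdhaf3), against 3.81% of all genes, and 1 was lower (Sdhaf1), against 5.05%. Of the 6 subunits of complexes III, IV and V encoded in mitochondrial DNA, 4 were tested, and mt-Cytb and mt-Co1 had the smallest p-values (0.0993 and 0.426). Their median of 0.23 on the log2 scale rests in part on mt-Co2 and mt-Atp6, which had 7 to 38 counts per library and SEs of 1.31 and 1.38. In contrast, mt-Cytb had 39957 to 119667 and mt-Co1 20359 to 45159 counts per library. The genes not tested, mt-Co3 and mt-Atp8, had 1 to 7 and 2 to 11. The authors counted unique reads only, and the part of this in the gap was not tested. The low counts are therefore not read as low expression. The median of the 8 tested regulators was 0.05, and Gabpa and Pprc1, a coactivator with a log2 fold change of 0.30 (SE 0.27), had the smallest p-values. Gabpa was the 1 of these 8 that was lower without overlap, against 5.05% of all genes.

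Promoter sequences were available for 34 members, with 37 annotated starts, and were searched for 3 motifs of regulators of respiratory chain genes on both strands. The NRF1 motif GCGCATGC was found in 6 of the 37 windows (16.2%), beside 2.71% of all 32851 windows of the same length. The GABPA motif CCGGAAG was found in 11 (29.7%), beside 8.86%, and the YY1 motif AAGATGGC in 3 (8.11%), beside 2.75%. Uqcr11, Cox6a1, Atp5k and Atp5l held both the NRF1 and the GABPA motif. The median number of CpG dinucleotides was 19 in the windows of members and 7 in all windows. These matches are a description of the sequence and were not tested.

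The data hold 3 pools per group from the same set of zygotes, and the spread between pools was wide, so a gene that was not called may still have changed. The share of Cox6b1 was picked out among 7 sets after all were compared, and its permutation test could not fall under 0.05. Exonic part counts add a read to each part it spans and do not separate strands, which leaves levels per kb approximate and most counts of Atp5j shared with Gabpa. RNA levels do not give the amount or the activity of the complexes, and protein was not analysed here.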

How the data were processed

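The authors trimmed reads with Trimmomatic 0.36, aligned them to build mm10 with STAR 2.5.2b and deposited raw counts per exonic part. Here the parts of each gene were added up. Parts named for overlapping genes went to the 1 gene whose GENCODE exons they overlap, and the rest, 2.49% to 2.57% of counts, was left out. A read that spans parts is counted in each.

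The test was the quasi-likelihood F-test of edgeR 4.0.16 (R 4.3.3) with TMM factors and no covariates, on genes kept by filterByExpr (thresholds 10 and 15), and p was adjusted by Benjamini-Hochberg over all of them. DESeq2 1.42.0, with and without this filter, and limma 3.58.1 were alternatives. The biological coefficient of variation was 0.663. The method was checked on simulated counts. Members and lists were chosen with earlier results of these data known. Values per library were given for members with an unadjusted p under 0.05 or without overlap, the 3 highest per complex and all isoforms. Other members were given by range or fold change, and of each list the 2 genes with the smallest p and those without overlap. Pet117 was not analysed here.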

Additional observations from a re-analysis of the deposited data

How the results depend on the processing

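All alternatives were planned except the extended part lengths and DESeq2 on the filtered genes, as well as the complex V sum without Atp5j, which were chosen after seeing the data. The cause of the changes below was not tested. No member was called in any setting. Without the filter on low counts (30967 genes), DESeq2 called 9 genes higher and 40 lower among all genes and edgeR 5 and 25, and the median of all genes was -0.17 and -0.18. On the 16020 filtered genes DESeq2 called 3 and 9.

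With 1 library left out, the median log2 fold change ranged from -0.20 to 0.42 for complex III (-0.0812 without control replicate 1 and -0.20 without delipidated replicate 2, with the sign reversed), from -0.48 to -0.0508 for complex IV and from -0.31 to -0.0483 for complex V.

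The sign of 21 of 41 members changed in some setting, 19 with a library left out, 9 in another setting and 0 under another scaling. Lowest to highest log2 fold change with a library left out: Atp5a1 -0.24 to 0.0112, Atp5c1 -0.43 to 0.0180, Atp5e -1.17 to 0.51, Atp5f1 -0.22 to 0.0563, Atp5g3 -1.54 to 0.12, Atp5h -0.0111 to 0.79, Atp5j2 -0.51 to 0.43, Atp5o -1.13 to 0.25, Cox4i1 -0.0857 to 0.40, Cox7a2 -0.47 to 0.16, Cox7b -0.63 to 0.0224, Cox7c -0.52 to 0.49, Cox8a -0.0904 to 0.26, Uqcr11 -0.81 to 0.15, Uqcrb -0.49 to 0.41, Uqcrc1 -0.45 to 0.58, Uqcrc2 -0.63 to 0.12, Uqcrh -0.21 to 0.57 and Usmg5 -1.16 to 0.14.

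With the part with most counts: Atp5c1 0.12, Atp5d 0.11, Cox4i1 -0.16, Cox7c -0.85, Cox8a -0.0047, Cyc1 0.48 and Uqcr11 0.46. With limma-voom: Atp5j2 0.0209, Cox7c -0.39 and Uqcrb 0.0747. Without parts on both strands: Uqcrb 0.0489. Libraries with the same number did not deviate together (r = -0.084, 0.070 and 0.043), so numbers were not treated as pairs. With a block for the number, Atp5j2 was 0.0765, Cox7c -0.28, Uqcrb 0.0085 and Uqcr10 1.35 (unadjusted p = 0.0448).

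Levels per kb moved for 43 of 45 members with the part with most counts and for 24 with extended lengths, where the scale differs by construction. The order of levels changed as well. Shares moved in 5 of 34 values with the part with most counts, in 6 with extended lengths and in 3 without joined parts.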
